A study of Mus musculus with 3 samples.

Results

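Bone morphogenetic proteins (BMPs) are secreted ligands of the TGFβ superfamily. They bind pairs of type I and type II receptors, the receptors phosphorylate SMAD1, SMAD5 and SMAD9, and these enter the nucleus with SMAD4. The inhibitor of DNA binding (Id) genes are classical targets of this pathway. Id proteins have a helix-loop-helix but no basic DNA-binding region, so they hold E proteins and related factors in dimers that cannot bind DNA. In the liver, BMPs from non-parenchymal cells act on hepatocytes to control hepcidin and iron, and BMP and Id levels in stellate cells have been studied in fibrosis.

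The 10 genes described here are the Id family (*Id1*, *Id2*, *Id3* and *Id4*), the ligands *Bmp2*, *Bmp4* and *Bmp5*, the receptors *Bmpr1a* and *Bmpr2*, and the secreted antagonist *Grem1*. They were chosen by symbol and with earlier results of these data known. All 10 were among the 30595 symbols that occur once in each of the 2 deposited tables. Hepatic stellate cells (HSCs) store vitamin A in the liver and produce matrix in fibrosis. They were isolated on a Nycodenz gradient from wild-type female C57BL/6 mice older than 24 weeks. All cells spent 24 h in DMEM with 0.2% FBS. They were then left untreated, or given recombinant human FGF18 at 100 ng/mL or TGFβ1 at 1 ng/mL for a further 24 h. A preparation typically drew on more than 1 mouse, and plated HSCs begin to activate on their own, so untreated cells are a culture baseline rather than cells as they are in the liver. GEO lists 1 record per condition, whereas the paper describes triplicate samples.

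Each value below is the authors' group mean in TPM, which relates reads to transcript length and to the library total, so that levels can be compared between genes. The tables hold no values per library. No standard deviation, interval or test could therefore be computed from the means, and whether a difference exceeds the spread between samples was not assessed here for any gene. The paper states an approximate number of reads per sample, but the depth reached behind each mean is unknown. A plain fold is a ratio of group means. A log2 ratio was taken after adding 1 TPM to each mean, which shrinks the ratio of low genes, and a gene was counted as past 2-fold where this ratio reached 1 or -1. Genes counted in a comparison had group means averaging at least 1 TPM. *Grem1* stayed under that level and the other 9 genes passed it in all 3 comparisons. The untreated means were identical in both tables for all 30595 symbols. Both comparisons with untreated cells thus share 1 control, and an unusual untreated mean would move both ratios of a gene together.

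The cultures carried stellate markers. All 12 listed were present at an average of at least 1 TPM, with *Dcn* at 7021 TPM, *Lrat* at 151 TPM and *Des* at 148 TPM in untreated cells. These markers differed between the groups too. With FGF18, 3 of the 12 were past 2-fold lower, against 5.77% of all genes. With TGFβ1, 2 were lower and 1 was higher, against 4.39% and 4.26% of all genes. *Lrat*, the enzyme that stores vitamin A as esters, was at 61.6 TPM with FGF18 and 43.9 TPM with TGFβ1. Endothelial transcripts were also present. The 15 listed liver endothelial markers summed to 630 TPM in untreated cells, 506 TPM with FGF18 and 254 TPM with TGFβ1, and 0 of the 15 were at 0. Markers of other cells were lower. In untreated cells the 12 Kupffer cell markers summed to 72.2 TPM, of which *Cd68* made up 52.1 TPM, while the Kupffer cell lectin *Clec4f* was at 0.186 TPM. Their sum was 103 TPM with FGF18 and 68.7 TPM with TGFβ1. The untreated sums were 21.6 TPM for 9 hepatocyte markers, 10.8 TPM for 6 cholangiocyte markers, 11.0 TPM for 5 mesothelial markers and 16.5 TPM for 6 lymphocyte markers. The 7 smooth muscle markers summed to 428 TPM in untreated cells, 214 TPM with FGF18 and 199 TPM with TGFβ1. Of the untreated sum, *Mustn1* made up 230 TPM and *Des*, which is also in the stellate list, 148 TPM. In bulk RNA, fewer cells of a type and less RNA per cell cannot be told apart.

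In the GENCODE M21 annotation of GRCm38, all 10 are protein-coding genes. *Id1* lies on chromosome 2 from 152736251 to 152737410, *Id2* on chromosome 12 from 25093799 to 25097140, *Id3* on chromosome 4 from 136143497 to 136145755 and *Id4* on chromosome 13 from 48261228 to 48266026. *Bmp2* lies on chromosome 2 from 133552159 to 133562885, *Bmp4* on chromosome 14 from 46383520 to 46390669 and *Bmp5* on chromosome 9 from 75775364 to 75900310. *Bmpr1a* spans 34410734 to 34503341 on chromosome 14, *Bmpr2* spans 59763400 to 59879014 on chromosome 1 and *Grem1* spans 113746164 to 113758646 on chromosome 2.

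The Id family was the most abundant part of this set and was dominated by *Id3*. In untreated HSCs the 4 Id genes summed to 753 TPM, of which *Id3* held 66.3%, *Id2* 30.6%, *Id1* 2.67% and *Id4* 0.437%. The sum was 475 TPM with FGF18 and 285 TPM with TGFβ1, which is 1.58-fold and 2.64-fold lower than in untreated cells. *Id2*, *Id3* and *Id4* were lower with either stimulus, and lower with TGFβ1 than with FGF18. *Id1* was the exception in the family, higher with FGF18 and lower with TGFβ1.

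*Id3*, which binds E proteins and is a common readout of BMP signaling, had a mean of 499 TPM in untreated cells, 310 TPM with FGF18 and 171 TPM with TGFβ1. Its untreated level lay above that of 98.6% of genes. It was 1.61-fold lower with FGF18 (log2 ratio -0.69) and 2.92-fold lower with TGFβ1 (-1.54). With TGFβ1 only 1.80% of genes had a lower ratio, whereas 12.1% did with FGF18.

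*Id2*, which besides E proteins can also bind the retinoblastoma protein, had a mean of 231 TPM in untreated cells, 125 TPM with FGF18 and 101 TPM with TGFβ1. It was 1.85-fold lower with FGF18 (log2 ratio -0.88) and 2.28-fold lower with TGFβ1 (-1.18). The FGF18 and TGFβ1 means of *Id2* lay closer to each other than to the untreated mean, and their log2 ratio was 0.30. The order *Id3* above *Id2* held in each condition, with a ratio of their means of 2.16 in untreated cells, 2.48 with FGF18 and 1.68 with TGFβ1.

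*Id1* was a minor Id transcript, at 20.1 TPM in untreated cells, 38.8 TPM with FGF18 and 12.5 TPM with TGFβ1. It was 1.93-fold higher with FGF18 (log2 ratio 0.91), just short of 2-fold, and 2.85% of genes had a higher ratio. With TGFβ1 it was 1.61-fold lower (-0.65). The FGF18 mean of *Id1* was 3.11-fold above the TGFβ1 mean (log2 ratio 1.56). *Id3* was 24.8 times as abundant as *Id1* in untreated cells and 7.99 times with FGF18. *Id1* made up 8.15% of the Id transcripts with FGF18.

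*Id4*, the Id protein best known from the nervous system, was the scarcest of the 4. Its means were 3.29 TPM in untreated cells, 2.20 TPM with FGF18 and 0.596 TPM with TGFβ1. The log2 ratio was -0.42 with FGF18 and -1.43 with TGFβ1. At this level the ratio rests on the added constant: with TGFβ1 it was -2.28 after adding 0.1 TPM and -0.57 after adding 5 TPM.

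**Figure D1:**
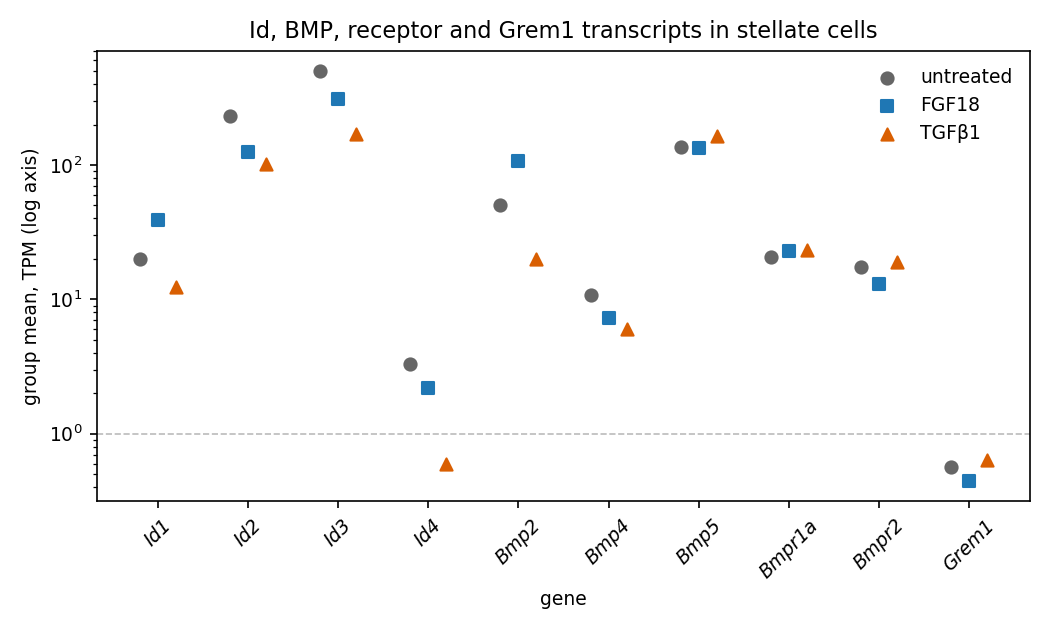
Group mean of each of the 10 genes (horizontal axis) in TPM on a log axis, for untreated, FGF18-treated and TGFβ1-treated HSCs, with 1 point per group and no error bars because no values per library were used. *Id3* is highest at 499, 310 and 171 TPM, *Bmp2* spreads from 20.0 to 107 TPM, and *Grem1* stays below the dashed line at 1 TPM.

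Promoters were to be shown for Id genes past 1.5-fold in either comparison with untreated cells, and those of *Id2*, *Id3* and *Id4* were available. The sequences are RefSeq's (GRCm38.p6), read in the direction of transcription from 250 bases before to 50 bases after the start that RefSeq annotates. These starts differ from the GENCODE gene limits given above. By those limits the *Id2* and *Id3* windows lie inside the genes, and the *Id4* window lies before its gene. Of the 10 genes, 8 had an entry in the table. *Id1* and *Bmp2*, the 2 past 1.5-fold higher with FGF18, had none and were not searched. Capitals mark GGCGCC, the GC-rich motif that BMP-activated SMADs can bind. The search covered both strands and also CAGACA, which holds a SMAD-binding core, and TATAAA, the TATA box. The GC-rich motif reads the same on both strands, and it was the 1 motif of the 3 found in the windows printed.

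Id2 promoter, chr12:25096043-25096342, minus strand: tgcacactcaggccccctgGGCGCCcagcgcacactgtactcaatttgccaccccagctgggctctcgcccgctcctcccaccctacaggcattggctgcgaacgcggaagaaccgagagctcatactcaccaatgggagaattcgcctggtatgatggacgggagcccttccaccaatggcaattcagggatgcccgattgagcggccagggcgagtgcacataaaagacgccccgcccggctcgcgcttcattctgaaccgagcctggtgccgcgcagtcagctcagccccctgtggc
Id3 promoter, chr4:136143572-136143871, plus strand: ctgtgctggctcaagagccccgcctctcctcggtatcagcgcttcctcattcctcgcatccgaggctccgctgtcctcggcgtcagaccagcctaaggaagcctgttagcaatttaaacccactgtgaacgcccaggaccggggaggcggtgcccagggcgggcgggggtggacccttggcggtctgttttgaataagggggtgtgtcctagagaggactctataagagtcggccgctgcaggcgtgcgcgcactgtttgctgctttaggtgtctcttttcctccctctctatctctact
Id4 promoter, chr13:48260866-48261165, plus strand: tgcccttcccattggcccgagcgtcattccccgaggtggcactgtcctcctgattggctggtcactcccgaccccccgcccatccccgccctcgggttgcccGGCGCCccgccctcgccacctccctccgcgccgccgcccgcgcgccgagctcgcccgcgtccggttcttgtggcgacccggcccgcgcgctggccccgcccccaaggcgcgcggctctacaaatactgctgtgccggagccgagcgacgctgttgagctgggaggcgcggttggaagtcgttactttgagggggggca

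GGCGCC began 231 bases before the RefSeq start of *Id2* and 148 bases before that of *Id4*, and it is not in the *Id3* window. It was also found in the windows of *Bmpr1a*, *Bmpr2* and *Grem1*, which makes 5 of 8, whereas 11.9% of the 32851 RefSeq promoter windows hold it. The windows of these genes are rich in G and C, with 63.3% in *Id2*, 60.0% in *Id3* and 73.3% in *Id4* against a median of 52.7% over all windows. The share of the motif among windows of like G and C content was not tested. CAGACA was found in 1 of the 8 windows, that of *Bmp5*, against 21.0% of all windows, and TATAAA in 0 of 8 against 13.6%. A match is a run of letters and not a shown binding site.

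Among the ligands, *Bmp2* stood apart. *Bmp2*, which in the liver is known mainly as a product of sinusoidal endothelial cells, had a mean of 50.2 TPM in untreated cells, 107 TPM with FGF18 and 20.0 TPM with TGFβ1. It was 2.12-fold higher with FGF18 (log2 ratio 1.07) and 2.51-fold lower with TGFβ1 (-1.29). The FGF18 mean was 5.33-fold above the TGFβ1 mean (log2 ratio 2.36), and 0.209% of genes had a higher ratio between the stimuli. *Bmp2* was the 1 gene of the 10 that was past 2-fold in opposite directions.

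*Bmp5*, a ligand of the BMP5-BMP6-BMP7 subgroup, was the most abundant of the 3 ligands and moved little. Its means were 137 TPM in untreated cells, 134 TPM with FGF18 and 166 TPM with TGFβ1. Its log2 ratios were -0.03 and 0.27. *Bmp4*, the close relative of *Bmp2*, had means of 10.7 TPM, 7.26 TPM and 6.05 TPM, in the same order, with log2 ratios of -0.50 and -0.73. *Bmp4* thus lay on the lower side with both stimuli, unlike *Bmp2*. The ratio of the *Bmp5* mean to the *Bmp2* mean was 2.73 in untreated cells, 1.26 with FGF18 and 8.29 with TGFβ1. The 3 ligands together were at 198 TPM, 248 TPM and 192 TPM, and *Bmp2* made up 25.3%, 43.0% and 10.4% of the sum.

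The receptors differed little between the groups. *Bmpr1a*, the type I receptor also called ALK3, had means of 20.6 TPM in untreated cells, 23.0 TPM with FGF18 and 23.5 TPM with TGFβ1. Its log2 ratios were 0.15 and 0.18. *Bmpr2*, the type II receptor for BMPs, had means of 17.3 TPM, 13.1 TPM and 19.1 TPM, with log2 ratios of -0.38 and 0.13. *Grem1*, which encodes gremlin 1 and binds BMP2 and BMP4, had means of 0.566 TPM, 0.447 TPM and 0.641 TPM. These levels are too low for a fold.

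Counted by comparison, 1 of the 9 genes that passed the level filter was past 2-fold higher with FGF18 (*Bmp2*), where 2.34% of 20702 genes were. The count past 2-fold lower with FGF18 was 0 of 9, where 5.77% of all genes were. With TGFβ1, 0 of 9 were past 2-fold higher, against 4.26% of 21256 genes, and 4 of 9 were past 2-fold lower (*Id2*, *Id3*, *Id4* and *Bmp2*), against 4.39%. Between the stimuli, *Id1*, *Id4* and *Bmp2* were past 2-fold higher with FGF18 than with TGFβ1, or 3 of 9 against 2.49% of 20572 genes, and 0 of 9 were past 2-fold lower against 5.19%. The median log2 ratio of the 9 was -0.38 with FGF18 and -0.73 with TGFβ1, beside medians over all genes of -0.12 and -0.0035. At a limit of 1.5-fold, *Id1* joined *Bmp2* on the higher side with FGF18, and *Id2* and *Id3* were on the lower side. Of the 20702 genes, 1345 were on the higher side and 3377 on the lower side at that limit. With TGFβ1, 0 of 9 were past 1.5-fold higher and 6 of 9 lower, where 2247 and 2268 of 21256 genes were. Because the genes were chosen with earlier results known, these counts and shares are a description and not a test.

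**Figure D2:**
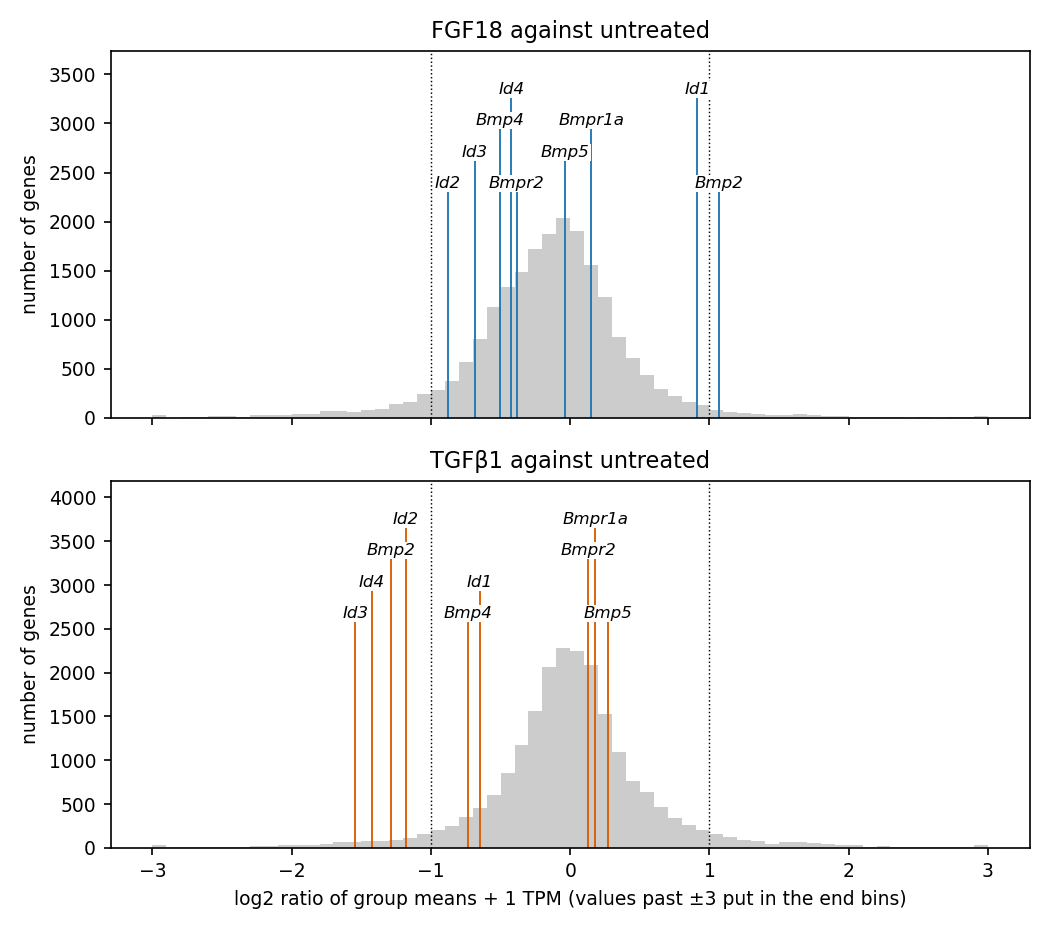
Number of genes (vertical axis) by log2 ratio of group means after adding 1 TPM (horizontal axis), for FGF18 (upper panel) and TGFβ1 (lower panel) against untreated HSCs. Vertical lines mark the 9 genes that passed the level filter and dotted lines mark 2-fold, the end bins hold values beyond the axis, and *Bmp2* lies past 2-fold on the higher side with FGF18 at 1.07, while *Id3*, *Id4*, *Bmp2* and *Id2* lie past it on the lower side with TGFβ1, from -1.54 to -1.18.

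Most endothelial markers were lower with TGFβ1, as *Bmp2* and the Id genes were. In that comparison 9 of the 14 endothelial markers that passed the level filter were past 2-fold lower, against 4.39% of all genes. Their median log2 ratio was -1.55. The ratios ran from *Fcgr2b*, whose mean was 143 TPM without stimulation and 13.3 TPM after TGFβ1, to *Stab2*, at 5.48 TPM and 9.08 TPM. *Pecam1* was at 103 TPM and 96.8 TPM. With FGF18, 0 of the 14 were past 2-fold, where 2.34% of all genes were higher and 5.77% lower. Their median log2 ratio was -0.35, beside -0.12 over all genes, and 11 of the 14 ratios were below 0. *Bmp2* and *Id1* were higher with FGF18. Of the 7 smooth muscle markers, 5 were past 2-fold lower with FGF18 and 4 with TGFβ1, against 5.77% and 4.39% of all genes. Their median log2 ratios were -1.47 and -1.14. The part of endothelial, stellate and smooth muscle transcripts in the levels of *Bmp2* and the Id genes was not tested.

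**Figure D3:**
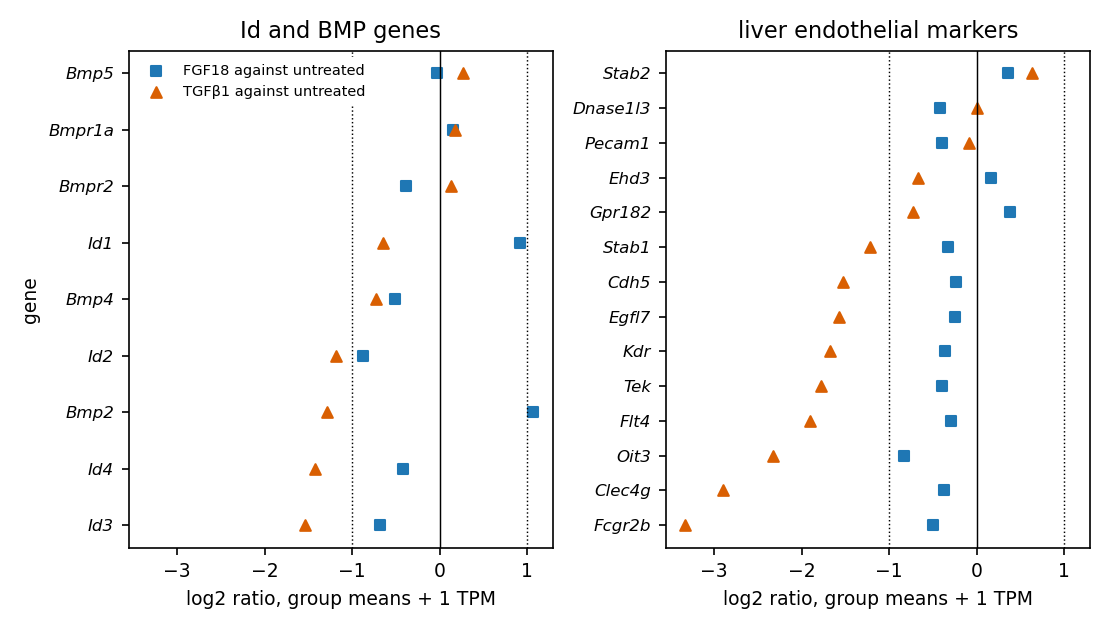
Log2 ratio of group means after adding 1 TPM (horizontal axis) for the 9 Id and BMP genes that passed the level filter (left) and for 14 liver endothelial markers (right), with squares for FGF18 and triangles for TGFβ1 against untreated HSCs, and dotted lines at 2-fold. With TGFβ1, 9 endothelial markers lie past 2-fold on the lower side, down to -3.33 for *Fcgr2b*, while with FGF18 all 14 lie within 2-fold. Over all genes, 4.39% were past 2-fold lower with TGFβ1 and 5.77% with FGF18.

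The rest of the pathway was taken from lists of ligands, receptors, SMADs, antagonists and targets. Leaving out the 10 genes, 47 such genes were in both tables. With FGF18, 2 of the 36 that passed the level filter were past 2-fold higher and 2 past 2-fold lower. With TGFβ1, 4 of 39 were higher and 3 lower, and between the stimuli 0 of 35 were higher with FGF18 and 5 were lower. Over all genes the shares higher and lower were 2.34% and 5.77% with FGF18 and 4.26% and 4.39% with TGFβ1. Between the stimuli they were 2.49% and 5.19%. The medians of the log2 ratios of the pathway genes were -0.16, 0.12 and -0.19.

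Of the other ligands, *Gdf2* and *Bmp10* were past 2-fold lower. *Gdf2*, which encodes BMP9, a circulating ligand made in the liver, had means of 107 TPM in untreated cells, 49.6 TPM with FGF18 and 44.2 TPM with TGFβ1, past 2-fold lower with both (log2 ratios -1.09 and -1.25). *Bmp10*, its closest relative, had means of 13.9 TPM, 8.37 TPM and 4.64 TPM, with ratios of -0.67 and -1.40. *Bmp6*, the other main BMP of iron control and likewise known from sinusoidal endothelial cells, had means of 4.39 TPM, 5.15 TPM and 2.44 TPM. Its ratios had the signs of those of *Bmp2*, at 0.19 and -0.65, and neither was past 2-fold. *Gdf6* went the other way, at 9.48 TPM in untreated cells, 5.24 TPM with FGF18 and 14.5 TPM with TGFβ1, and was past 2-fold lower with FGF18 than with TGFβ1 (log2 ratio -1.31).

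Among receptors and co-receptors, *Rgmb* and *Neo1* were the 2 past 2-fold. *Rgmb*, a BMP co-receptor of the repulsive guidance molecule family, had means of 7.74 TPM in untreated cells, 19.0 TPM with FGF18 and 13.2 TPM with TGFβ1. *Neo1*, which encodes neogenin, a receptor for these molecules, had means of 16.5 TPM, 42.5 TPM and 26.7 TPM. Their log2 ratios with FGF18 were 1.20 and 1.31, and with TGFβ1 0.70 and 0.66. *Eng*, the co-receptor endoglin, was the most abundant gene of this list, at 247 TPM, 231 TPM and 368 TPM. The type I receptor *Acvr1* and the type II receptor *Acvr2a* had log2 ratios between -0.07 and 0.11 in both comparisons with untreated cells.

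Of the receptor-regulated SMADs of the BMP branch, *Smad1* and *Smad5* were within 2-fold in each comparison. *Smad1* had means of 34.7 TPM in untreated cells, 40.9 TPM with FGF18 and 43.9 TPM with TGFβ1, and *Smad5* had 21.5 TPM, 19.6 TPM and 20.6 TPM. *Smad9* was low, at 1.33 TPM, 0.807 TPM and 0.655 TPM, and with TGFβ1 it was under the level filter. The inhibitory SMADs differed from each other. *Smad7*, induced by TGFβ as feedback, had means of 5.68 TPM in untreated cells, 4.30 TPM with FGF18 and 14.3 TPM with TGFβ1 (log2 ratio 1.20 with TGFβ1). *Smad6*, which is linked more closely to BMP signaling, had 13.1 TPM, 15.4 TPM and 17.5 TPM. *Smurf1*, a ubiquitin ligase that acts on BMP SMADs, was past 2-fold higher with TGFβ1 at 10.1 TPM against 4.33 TPM.

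Among the binding proteins and antagonists, *Fst* and its relatives were those past 2-fold in any comparison. *Fstl1*, which encodes follistatin-like 1, had the highest level of the list, with means of 350 TPM in untreated cells, 222 TPM with FGF18 and 670 TPM with TGFβ1. *Twsg1*, which encodes the BMP-binding protein twisted gastrulation, came next at 97.7 TPM, 58.5 TPM and 78.6 TPM. *Fstl3*, an inhibitor of activins, had 19.7 TPM, 16.4 TPM and 73.4 TPM, and was past 2-fold higher with TGFβ1 (log2 ratio 1.85). *Fst*, which encodes follistatin, had 3.13 TPM, 3.01 TPM and 7.77 TPM (log2 ratio 1.09). All 3 were past 2-fold lower with FGF18 than with TGFβ1. *Nog*, which encodes the BMP antagonist noggin, was under 1 TPM in each group, as *Grem1* was, and *Chrd* lay between 0.923 and 1.21 TPM.

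Other known BMP targets differed in direction. *Hey1*, a transcription factor also induced by Notch, had means of 2.73 TPM in untreated cells, 0.713 TPM with FGF18 and 0.387 TPM with TGFβ1, past 2-fold lower with both. At such low levels these ratios rest on the added 1 TPM, and the *Hey1* ratios with other constants were not examined. *Atoh8*, a BMP-responsive factor in liver, had 24.9 TPM, 13.8 TPM and 14.7 TPM, with log2 ratios of -0.81 and -0.73. *Bambi*, a decoy receptor, had 25.6 TPM, 22.0 TPM and 34.9 TPM, and *Runx2* and *Msx1* had log2 ratios between -0.12 and 0.12. *Hey1* and *Atoh8* thus shared the lower side with *Id2* and *Id3* under both stimuli, and *Smad6* and *Msx1* did not.

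**Figure D4:**
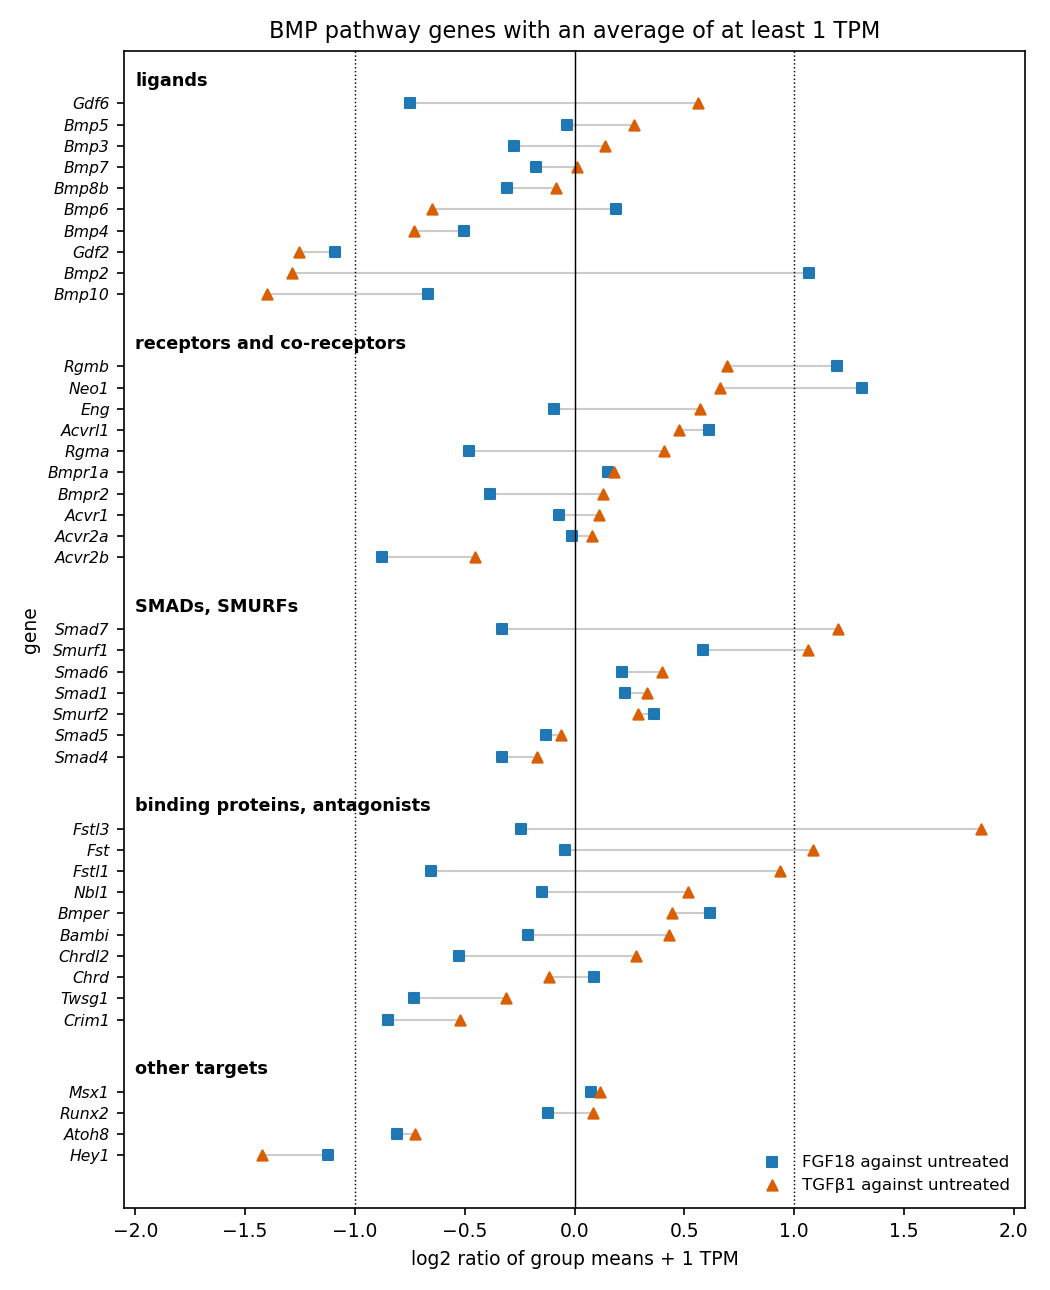
Log2 ratio of group means after adding 1 TPM (horizontal axis) for BMP pathway genes whose 3 group means average at least 1 TPM, grouped by role, with squares for FGF18 and triangles for TGFβ1 against untreated HSCs, and dotted lines at 2-fold. *Bmp2* spans 1.07 to -1.29, *Rgmb* and *Neo1* lie past 2-fold higher with FGF18, and *Fstl3*, *Smad7*, *Fst* and *Smurf1* lie past 2-fold higher with TGFβ1. *Gdf2* and *Hey1* lie past 2-fold lower with both stimuli, and *Bmp10* does so with TGFβ1.

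The genes nearest to each Id gene were sought among 9429 genes whose 3 group means averaged at least 10 TPM, by the distance between their 2 log2 ratios. With 3 conditions and a shared control, such likeness is a description only. Nearest to *Id1* were *Dab2* (60.1 TPM in untreated cells, 116 TPM with FGF18 and 38.6 TPM with TGFβ1, distance 0.036), *Dusp6* (distance 0.17), an ERK phosphatase, and *Pdgfra* (distance 0.20), a PDGF receptor. Nearest to *Id2* were *Tmem53*, *Selenbp1* and *Ms4a4d*, at distances of 0.031 to 0.049. Nearest to *Id3* were *Pde2a*, a cyclic nucleotide phosphodiesterase, *Dusp1*, a MAP kinase phosphatase, and *Suox*, at 0.11 to 0.18. *Dusp1* had means of 177 TPM, 122 TPM and 60.5 TPM. Nearest to *Id4* were *Hpse*, which encodes heparanase, *Lpar6* and *Tmem37*, at 0.053 to 0.062. The *Id4* distances hold only for the added 1 TPM. *Id4* averaged 2.03 TPM over the groups, below the level asked of the compared genes. The TGFβ1 ratio of *Id4* moved from -1.43 to -2.28 when 0.1 TPM was added instead, and to -0.57 for 5 TPM. Distances with those constants were not computed. The 12 names did not overlap. With only 3 taken for each Id gene from 9429, this is no result about the Id genes, and overlap for other genes was not computed.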

How the data were processed

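Bulk RNA-seq of cultured HSCs was analyzed for 3 conditions with 1 GEO record each. SMART-Seq libraries were sequenced, mapped to GRCm38 and processed by the authors with RaNA-seq. For aligner, counter and annotation: not given in the sources used here. As TPM, the values were deposited by the authors as 1 mean per group, with totals of 999985 to 999995 per column. The columns with the authors' log2 fold change, its standard error, statistic, p-value and adjusted p hold their own comparison and were not used. Column A is the group that the 2 tables share, hence untreated.

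From the TPM means, log2 ratios were computed after adding 1 TPM, over genes with group means averaging at least 1 TPM. The 106 and 104 rows whose symbol occurs more than once were left out. As no value per library was used, no test was run, and leaving out a replicate, a replicate block and a count-based test were not run. Settings tried were a pseudocount of 0.1 or 5 TPM, a limit of 1.5-fold, no level filter or one of 10 TPM, centring on the median ratio, and TPM rescaled without mitochondrial and the 10 most abundant genes of each group. The genes named by rule are the 10 members, pathway genes past 2-fold or of highest level and the 3 nearest genes of each Id gene. Every other gene named, markers and helix-loop-helix factors included, was picked for its role after its values were seen. Members and lists were chosen with earlier results of these data known. Python 3.11.15, numpy 2.4.6, pandas 2.3.3 and matplotlib 3.10.9 were used.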

Additional observations from a re-analysis of the deposited data

How the results depend on the processing

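The means carry no error, so the settings show only how the ratios depend on arithmetic. Of 30 log2 ratios (10 genes in 3 comparisons), all 30 kept their sign with a pseudocount of 0.1 TPM, with 5 TPM and with rescaled TPM, and 29 did so after centring. The exception was *Bmpr1a* between the stimuli, at -0.030 and 0.023. Centring moved ratios by up to 0.053. With 5 TPM added, *Id4* left the genes past 2-fold with TGFβ1 and between the stimuli. With a limit of 1.5-fold, the members past it with FGF18 were 2 higher and 2 lower, in place of 1 and 0. Over all genes, 484 were past 2-fold higher and 1194 lower with FGF18, 905 and 933 with TGFβ1, and 512 and 1068 between the stimuli. With 0.1 TPM added these were 819 and 2051, 1437 and 1490, and 813 and 1906. With 5 TPM they were 119 and 198, 216 and 237, and 136 and 195. At 1.5-fold they were 1345 and 3377, 2247 and 2268, and 1264 and 2982. At an average of at least 10 TPM they were 99 and 145, 185 and 183, and 126 and 170. Leaving out each replicate and a paired fit need values per library and were not run.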

Other observations

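Genes of E proteins and related helix-loop-helix factors were mostly within 2-fold, as most genes were. Over all genes, 2.34% were past 2-fold higher and 5.77% lower with FGF18, and 4.26% and 4.39% with TGFβ1. Whether Id proteins bind each of these factors was not tested. Of the E proteins, *Tcf4* had means of 90.9 TPM in untreated cells, 76.0 TPM with FGF18 and 83.9 TPM with TGFβ1, *Tcf12* had 31.4 TPM, 30.4 TPM and 31.3 TPM, and *Tcf3* had 18.3 TPM, 20.0 TPM and 24.5 TPM. The 7 genes of this list that passed the level filter had median log2 ratios of -0.05 with FGF18 and -0.0062 with TGFβ1. *Msc*, which encodes the repressor musculin, was the 1 past 2-fold, at 7.68 TPM in untreated cells, 7.99 TPM with FGF18 and 2.74 TPM with TGFβ1. *Tcf21*, a factor expressed in stellate cells, was at 55.4 TPM, 44.5 TPM and 27.9 TPM. With TGFβ1 it was 1.98-fold lower, just short of 2-fold. The 11 genes of this list summed to 229 TPM without stimulation, 206 TPM after FGF18 and 203 TPM after TGFβ1. The 4 Id genes summed to 753, 475 and 285 TPM.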
